A study of Mus musculus with 6 samples.

Results

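Fractalkine and its receptor were described in the sciatic nerve of wild-type and Plekhg5-deficient mice. The pair consists of 2 of the 39174 genes listed in each table: Cx3cl1, which encodes the chemokine fractalkine, and Cx3cr1, which encodes the receptor. Both were selected on their FPKM in these same 6 libraries, where the levels appeared to differ between the genotypes. Their differences between genotypes are therefore given as descriptions, without a test. RNA sequencing was available for 3 wild-type animals, numbered 2, 4 and 5, and 3 Plekhg5-/- animals, numbered 2, 3 and 5, with 1 library per animal. The labels name no treatment, and the nerves came from adult mice, 12 months old by the study's account, and their sex was not stated. Whole nerve was sequenced, so a level does not say which of its cells carried the transcript, and knockout here stands for Plekhg5-/-.

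Fractalkine is made as a membrane protein with its chemokine domain on a long mucin-like stalk. In this form it holds passing leukocytes to the cell surface, and once cut off by metalloproteases it acts as a soluble attractant. Endothelial cells and neurons are its best known sources, and in endothelium it is induced by TNF, interleukin-1 and interferon-gamma. Its receptor is coupled to Gi proteins and is carried by resident macrophages, microglia, patrolling monocytes and cytotoxic lymphocytes.

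Levels are in FPKM, fragments counted relative to transcript length and library size. Cufflinks also gave a 95% interval for each gene and library. For comparisons between libraries the FPKM were divided by a median-of-ratios factor of 0.744 to 1.12 per library and are then called scaled. The targeted gene was checked first. Scaled Plekhg5 stood at 3.65, 4.12 and 5.27 FPKM in wild-type animals 2, 4 and 5 and at 0.142, 0.140 and 0.0521 FPKM in knockout nerves 2, 3 and 5, so each library matched its label. Transcripts of 14 Schwann cell genes, which mark the labelled tissue, summed to 11118 to 19999 scaled FPKM. Several libraries stood apart in ways that genotype did not explain. Haemoglobin transcripts took 16.0% of the summed FPKM in Plekhg5-deficient 5 and 0.507% to 2.56% elsewhere. The summed scaled level of 13 T-cell genes was 171 FPKM in wild-type 5 and 4.02 to 12.4 FPKM in the other five. Axonal and neuronal transcripts summed to 173 and 123 FPKM in both libraries numbered 5 and to 1136 to 4246 FPKM in the rest. The depth of the libraries is unknown, as the tables hold no counts.

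Cx3cl1 (ENSMUSG00000031778) is listed in GRCm38 at chr8:94772009-94782423 on the forward strand. In the GENCODE M21 annotation it has 6 transcripts, and the one with the longest coding part, Cx3cl1-201, has 3 exons, each with coding sequence, and 1185 coding bases. Its promoter was searched because the ligand's level is the larger of the 2 differences described here. RefSeq places the start at position 94772180, and 4 of the 6 GENCODE transcripts start downstream of it, at 94772204. The stretch chr8:94772162-94772191 of the forward strand is shown here with the letters TATAAA in capitals.
Cx3cl1: ctgccagcccatTATAAAaagcaaccgaga
The capitals begin 6 bases before the RefSeq start and 30 bases before the start of those 4 transcripts, and they lie inside the first exon of Cx3cl1-201. TATAAA, on either strand, was found in 13.6% of 32851 RefSeq promoter windows of 300 bases. The same window of Cx3cl1 also held GGGCGG, the core of the GC box, which 35.7% of the windows hold, and it held GAGGAA, the core letters of the ETS factor PU.1, which 28.3% hold. The 10-base consensus of NF-kB, found in 4.51% of the windows, was not among the letters of the Cx3cl1 window. None of these motifs was found in the window of Cx3cr1. Such matches describe letters and say nothing of whether a factor binds there.

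Cx3cl1 was lower in all 3 knockout nerves than in any wild-type nerve. As deposited, its level was 8.15, 7.10 and 8.61 FPKM in wild-type animals 2, 4 and 5. In knockout nerves 2, 3 and 5 it was 2.79, 1.86 and 1.23 FPKM. The lowest wild-type nerve thus lay well above the highest Plekhg5-deficient nerve, and the groups did not overlap, which held for 5.87% of all genes tested in this direction after scaling. After scaling the levels were 7.44, 6.34 and 8.70 FPKM against 2.56, 1.77 and 1.65 FPKM, with a mean of 7.50 ± 1.18 FPKM (SD, n = 3) in wild-type against 1.99 ± 0.494 FPKM (SD, n = 3) in knockout nerves. The ratio of these means was 3.77, and without scaling it was 4.06. On the scale of log2(FPKM + 1), which understates the change of low genes, the difference was -1.51 with a standard error of 0.21. For scale, 0.521% of the 21285 genes compared had a difference of larger size in either direction. In whole nerve, fewer cells of a type and less RNA per cell cannot be told apart.

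The intervals that Cufflinks gave for the ligand were narrow next to this difference. In wild-type nerves they reached from 6.20 FPKM, the lower bound in wild-type 4, to 10.5 FPKM, the upper bound in wild-type 5, and among knockout nerves the highest upper bound was 3.40 FPKM, in animal 2. All 9 pairs of 1 wild-type and 1 Plekhg5-deficient library had intervals that did not touch. The ligand was selected on these same values, so this separation is a description and no separate support. The share of all genes with intervals apart in this way is not given here. Between libraries of one genotype the intervals overlapped in all 3 wild-type pairs and in 2 of 3 Plekhg5-deficient pairs. The interval reached to either side by 9.56% to 21.4% of the level in wild-type and 21.8% to 36.0% in knockout nerves, so the lower levels were also the less precisely estimated ones. These intervals cover the estimate within a library and not the spread between animals.

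**Figure D1:**
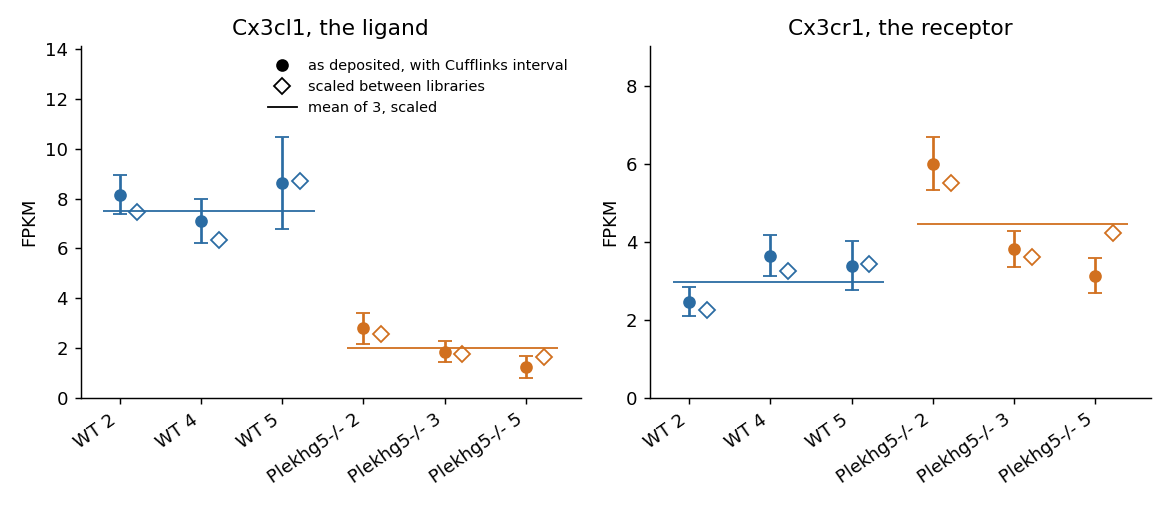
FPKM of Cx3cl1 (left) and Cx3cr1 (right) in 6 sciatic nerves, with wild-type (WT) in blue and Plekhg5-deficient in orange. Filled circles are deposited values with the 95% interval of Cufflinks, open diamonds are scaled values and lines are their means over 3 animals. The ligand's intervals do not touch between genotypes, while the receptor's ranges overlap as deposited. Both genes were selected on these values.

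Cx3cr1 (ENSMUSG00000052336) is listed at chr9:119901616-120068283 on the reverse strand. This long span comes from a single annotated transcript, Cx3cr1-202, which has a far untranslated exon of 12 bases that lies 148 kb from the next one. The span holds 4 other genes, Gorasp1, Ttc21a, Csrnp1 and Xirp1, and overlaps Wdr48. The compact transcript Cx3cr1-201 covers chr9:120048683-120068296 with 2 exons, and its 1062 coding bases lie in 1 exon, as they do in Cx3cr1-202. Whether reads of the enclosed genes were counted toward Cx3cr1 cannot be read from FPKM, since the strand setting was not stated.

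The receptor was higher on average in knockout nerves, by less than the ligand was lower, and its groups overlapped as deposited. As deposited it stood at 2.47, 3.65 and 3.39 FPKM in wild-type animals 2, 4 and 5. Knockout nerves 2, 3 and 5 had 6.01, 3.82 and 3.14 FPKM. Animal 2 was by far the highest of its genotype, and animal 5 lay below wild-type nerves 4 and 5, so the deposited values overlapped. After median-of-ratios scaling the levels were 2.25, 3.26 and 3.42 FPKM against 5.50, 3.62 and 4.21 FPKM, which no longer overlapped, as in 5.70% of all genes tested in this direction, although they still did when libraries were scaled to their upper quartile. The scaled mean was 2.98 ± 0.634 FPKM (SD, n = 3) in wild-type against 4.45 ± 0.961 FPKM (SD, n = 3) in knockout nerves, 1.49-fold higher, and as deposited 1.36-fold higher. The difference on the log2(FPKM + 1) scale was 0.45 with a standard error of 0.23, and 11.7% of the genes compared had a larger one in either direction. Intervals were separate in 4 of 9 pairs between genotypes as deposited, against 1 of 3 pairs within wild-type and 2 of 3 within knockout nerves. Intervals of the receptor were thus separate within as well as between genotypes.

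Plekhg5-deficient 5, the library rich in haemoglobin, had the smallest scaling factor, 0.744. Without scaling, the median difference of all genes was -0.09 on the log2(FPKM + 1) scale, against 0.01 with it, a shift of -0.10. Beside that median the unscaled difference of Cx3cr1 was 0.33 and that of Cx3cl1 was -1.63.

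The ratio of ligand to receptor does not depend on how libraries are scaled. Cx3cl1 exceeded Cx3cr1 by 3.30, 1.95 and 2.54 times in wild-type animals 2, 4 and 5. In knockout nerves 2, 3 and 5 the ratio was 0.465, 0.487 and 0.391, so the receptor's transcript was the more abundant of the pair per length in each of them. The mean ratio was 2.60 ± 0.681 (SD, n = 3) in wild-type against 0.448 ± 0.0503 (SD, n = 3) in knockout nerves, 5.80 times apart. Both genes were selected on these same FPKM, and their differences, in opposite directions, both carry over into the ratio. It is a description and no separate support.

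**Figure D2:**
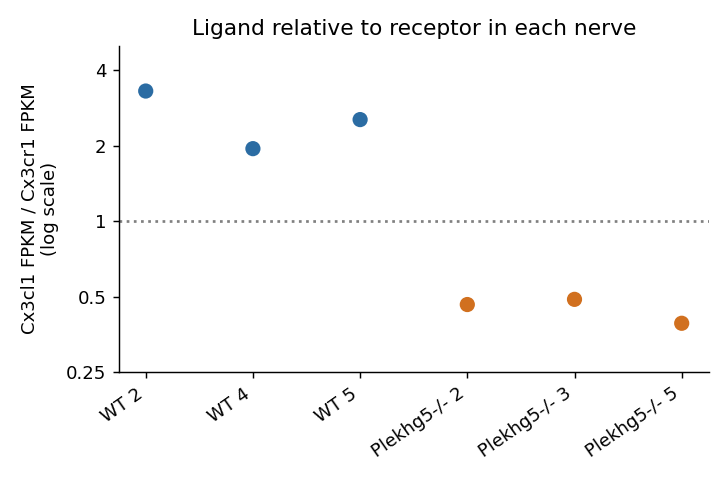
FPKM of Cx3cl1 divided by FPKM of Cx3cr1 in each nerve, on a log axis, with wild-type (WT) in blue and Plekhg5-deficient in orange. Wild-type ratios were 1.95 to 3.30 and Plekhg5-deficient ratios 0.391 to 0.487, on opposite sides of the dotted line at equal levels. Both genes were selected on their FPKM, which carries over into this ratio.

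Over the 6 libraries the log2(FPKM + 1) levels of ligand and receptor had a Pearson r of -0.65. Over the 6 deviations from the genotype means r was 0.53. The sign thus differed with and without the genotype means, and both are descriptions over 6 points that share libraries and scaling factors.

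Among chemokine genes the ligand was of middling level and ranked lower in knockout nerves. Of 38 chemokine ligands ranked by FPKM, Cx3cl1 stood at place 16, 14 and 16 in wild-type animals 2, 4 and 5 and at place 18, 21 and 23 in knockout nerves 2, 3 and 5. Ccl11, the eosinophil chemokine eotaxin, was among the 2 highest in all 6 nerves. Cxcl16, the other chemokine made on a membrane stalk, had scaled levels of 4.62, 4.96 and 8.72 FPKM in wild-type and 2.95, 3.47 and 8.01 FPKM in knockout nerves, which overlapped. Of 23 chemokine receptors, Cx3cr1 held place 4, 4 and 7 in wild-type and 3, 4 and 5 in knockout nerves. The decoy receptor Ackr1, listed under its older symbol Darc, was the highest in all 6, at 62.3 to 132 scaled FPKM.

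Across all genes, limma called 2 genes lower and 6 higher in knockout nerves at an adjusted p under 0.05, which are 0.00940% and 0.0282% of the 21285 tested and 0.0376% together. Without adjustment, 2.69% of the genes were lower and 2.42% higher at a p under 0.05, 5.11% together, and in 5.87% and 5.70% the libraries of the genotypes did not overlap, in the lower and the higher direction. The other genes of the pathway are read against these shares. Of 120 further pathway genes, 111 were tested, and limma called 0 of them at an adjusted p under 0.05. Before adjustment 7 of them had a p under 0.05 in the lower and 2 in the higher direction, and in 14 and 2 the genotypes did not overlap. Their median difference was -0.19 on the log2(FPKM + 1) scale, beside 0.01 over all genes tested.

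The other 37 chemokine ligands included 30 that were tested. Cxcl9, an interferon-induced attractant of T-cells, had 15.7, 3.18 and 4.34 scaled FPKM in wild-type and 1.61, 1.10 and 2.28 in knockout nerves (unadjusted p = 0.0292, adjusted p = 0.949, limma). Xcl1, a chemokine of cytotoxic lymphocytes, was at 0.598, 0.444 and 1.57 FPKM in wild-type, and it was listed at 0 in knockout nerves 2 and 5 and at 0.248 FPKM in nerve 3 (unadjusted p = 0.0176, adjusted p = 0.879, limma). Cxcl14, a chemokine of epithelium and stroma, was higher in knockout nerves, with 16.1, 9.16 and 17.8 FPKM in wild-type against 20.2, 24.9 and 52.0 FPKM (unadjusted p = 0.0365, adjusted p = 0.959, limma). None of these passed the adjusted threshold. Ccl5, a T-cell chemokine whose difference of -1.85 was larger in size than that of Cx3cl1, overlapped between genotypes, with 8.22, 5.78 and 155 FPKM in wild-type and 2.44, 4.23 and 10.5 FPKM in knockout nerves, and its value in wild-type 5 stood far from the rest. Of the other 22 chemokine receptors 20 were tested, and 0 reached even an unadjusted p under 0.05 by limma. Their summed level was 158 to 182 FPKM in wild-type and 112 to 137 FPKM in knockout nerves. Most of this sum came from Darc and Ackr3, each of which overlapped between genotypes. In Ccr7, Cxcr3 and Xcr1 the genotypes did not overlap, each lower in knockout nerves, and each was highest in wild-type 5, the library with most T-cell transcripts. The part of lymphoid RNA in these values was not tested.

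The enzymes that release fractalkine were present in each nerve. Adam10, which sheds it constitutively, had 58.0, 141 and 79.2 scaled FPKM in wild-type and 90.7, 70.5 and 56.6 FPKM in knockout nerves. Adam17, the inducible sheddase, was lower in level, at 4.62 to 7.27 FPKM in wild-type and 5.55 to 6.86 FPKM in knockout nerves. Both overlapped between genotypes, as did Ctss, a cathepsin of macrophages, and Rhbdf1 and Rhbdf2, which carry Adam17 to the surface. Mmp2, a gelatinase, was at 40.1, 41.1 and 66.1 FPKM in wild-type and at 34.4, 27.9 and 29.8 FPKM in knockout nerves (log2 difference -0.63, unadjusted p = 0.0337, adjusted p = 0.959, limma). Timp1, an inhibitor of metalloproteases, was at 8.30, 7.46 and 11.5 FPKM against 12.5, 18.0 and 22.4 FPKM (log2 difference 0.87, unadjusted p = 0.0144, adjusted p = 0.834, limma). In neither did the groups overlap, and neither passed the adjusted threshold.

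The integrins that bind fractalkine beside its receptor showed 0 of 4 genes at an unadjusted p under 0.05 by limma. The most abundant of them, Itgb1, had 60.7 to 72.2 scaled FPKM in wild-type and 67.1 to 75.7 FPKM in knockout nerves. Downstream of the receptor, 0 of 20 signalling genes reached an unadjusted p under 0.05 by limma, and the median difference was -0.22. Gnai2, the Gi subunit of leukocytes, was at 162 to 202 FPKM in wild-type and 170 to 191 FPKM in knockout nerves. In 3 of the 20, Gnb2, Arrb1 and Src, the genotypes did not overlap, each lower in knockout nerves. Arrb1, a beta-arrestin, for example had 10.8, 11.3 and 10.5 FPKM against 9.52, 8.68 and 6.84 FPKM.

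Of 18 genes of the cytokines, receptors and factors that induce fractalkine, 2 had an unadjusted p under 0.05, both of them lower. Irf1, an interferon-induced transcription factor, had 31.5, 12.7 and 18.6 scaled FPKM in wild-type animals 2, 4 and 5. In knockout nerves 2, 3 and 5 it had 8.74, 8.32 and 8.56 FPKM, so the 3 knockout values were nearly equal and all below the lowest wild-type value. The log2 difference of Irf1 was -1.11 with a standard error of 0.32 (unadjusted p = 0.0106, adjusted p = 0.774, limma). Ifng, which encodes interferon-gamma, was at 0.144 to 0.227 FPKM in wild-type and listed at 0 in all 3 knockout nerves (unadjusted p = 0.0203, adjusted p = 0.895, limma). Wild-type 2 was the highest library for Irf1 and Cxcl9, and for Cxcl10 it had 109 FPKM where the other five had 2.98 to 8.04 FPKM. For Cx3cl1 itself wild-type 2 was the middle of the 3 wild-type values. The subunits of NF-kB overlapped throughout, Rela with 17.0 to 22.4 FPKM in wild-type and 17.2 to 18.1 FPKM in knockout nerves among them.

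Of 15 genes that cytokines induce through NF-kB, as they do the ligand, 2 had an unadjusted p under 0.05, both of them lower, and 13 of 15 differences were below 0, with a median of -0.34. Without wild-type 5, 10 of 15 were below 0 and the median was -0.15, and without Plekhg5-deficient 5, 13 of 15 were below 0 and the median was -0.60. Traf1, an adaptor of TNF receptors, had 2.69, 4.82 and 9.67 scaled FPKM in wild-type and 1.56, 1.77 and 1.47 FPKM in knockout nerves (log2 difference -1.24, unadjusted p = 0.0156, adjusted p = 0.845, limma). Csf1, the growth factor of macrophages, had 11.7, 14.0 and 21.2 FPKM against 9.99, 7.43 and 9.34 FPKM (log2 difference -0.71, unadjusted p = 0.0272, adjusted p = 0.939, limma). Neither overlapped between genotypes and neither passed the adjusted threshold. Icam1 and Vcam1, adhesion molecules of activated endothelium, overlapped, Icam1 with 5.70, 6.41 and 11.9 FPKM in wild-type and 6.79, 3.92 and 9.98 FPKM in knockout nerves. Nfkbia, the feedback inhibitor of NF-kB, was highest in Plekhg5-deficient 5, at 65.9 FPKM.

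**Figure D3:**
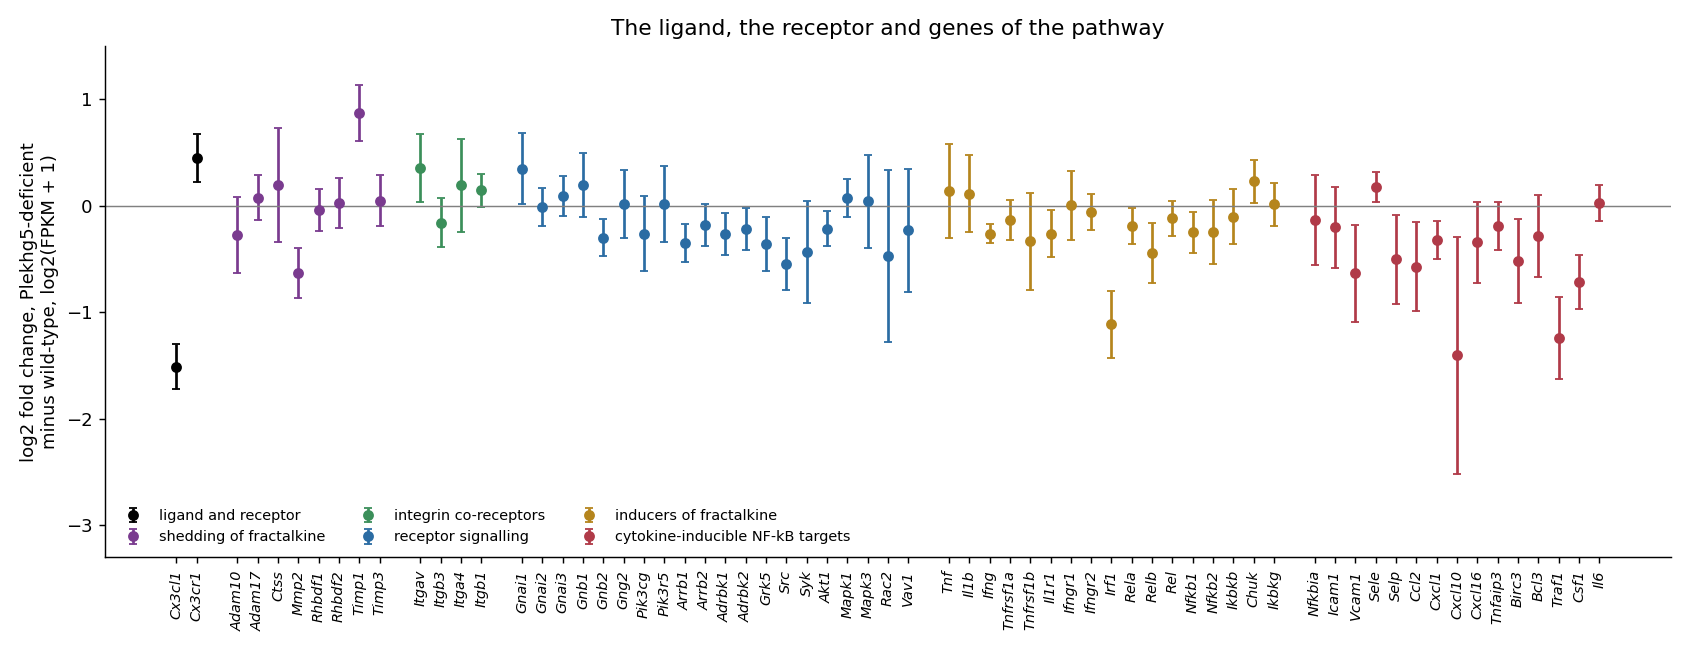
Difference of Plekhg5-deficient minus wild-type on the log2(FPKM + 1) scale for Cx3cl1, Cx3cr1 and genes of 5 pathway lists. Points are limma estimates over 3 animals a genotype and bars are standard errors; Cx3cl1 is at -1.51, and of the plotted list genes Cxcl10 at -1.40, with the widest bar, and Traf1 at -1.24 come closest, while the lists of chemokine ligands and receptors are not plotted.

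The known sources of the ligand were examined through their marker genes. Of 13 endothelial markers, 0 reached an unadjusted p under 0.05 by limma. Their summed scaled level was 208, 183 and 328 FPKM in wild-type animals 2, 4 and 5 and 270, 145 and 409 FPKM in knockout nerves 2, 3 and 5, which overlapped. Per 1000 FPKM of these markers, Cx3cl1 stood at 35.7, 34.6 and 26.5 in wild-type and at 9.45, 12.2 and 4.03 in knockout nerves. The groups stayed apart on this scale, and the ratio of the means was again 3.77. The ligand was selected on these same FPKM, so its difference carries over into any such ratio. These ratios are descriptions and no separate support. Set against markers of Schwann cells, fibroblasts, perineurium, smooth muscle and pericytes or adipocytes, the ligand was lower in knockout nerves as well, with no overlap and ratios of the means from 2.60 to 4.62. It was not set against the lists of immune cells, skeletal muscle or erythroid cells. Against axonal and neuronal transcripts the groups overlapped, and these transcripts ranged from 123 to 4246 FPKM. Their sum was lowest in both libraries numbered 5, and there Cx3cl1 was 8.70 FPKM in wild-type and 1.65 FPKM in knockout nerve. These were the highest wild-type and the lowest knockout level of the ligand. Which cells carried the ligand was not tested. The defining marker Chat, of motor neurons, was listed at 0 in all libraries.

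The cells known to carry the receptor were examined in the same way. Of 20 macrophage genes, 2 had an unadjusted p under 0.05, in opposite directions. Their summed scaled level was 572, 680 and 1394 FPKM in wild-type and 574, 620 and 1419 FPKM in knockout nerves, highest in both libraries numbered 5. Csf1r, the receptor that macrophages need to survive, was at 9.31, 12.1 and 25.5 FPKM in wild-type and 9.68, 8.99 and 21.6 FPKM in knockout nerves. Mertk, a receptor through which macrophages and Schwann cells take up dying cells and debris, had 4.18, 7.54 and 7.76 FPKM in wild-type and 23.2, 13.4 and 10.8 FPKM in knockout nerves (log2 difference 1.13, unadjusted p = 0.0135, adjusted p = 0.811, limma). Fcgr1, the high-affinity receptor for immunoglobulin G, was lower, with 2.05, 1.73 and 1.62 FPKM in wild-type and 0.741, 0.853 and 1.46 FPKM in knockout nerves (unadjusted p = 0.0432, adjusted p = 0.969, limma). Per 1000 FPKM of macrophage genes, Cx3cr1 stood at 3.94, 4.79 and 2.46 in wild-type and 9.59, 5.85 and 2.97 in knockout nerves, which overlapped.

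The list of 10 genes known from microglia and shared by some resident macrophages held differences in both directions. Olfml3, a secreted glycoprotein, was at 34.7, 45.6 and 60.0 scaled FPKM in wild-type and at 17.9, 18.2 and 24.4 FPKM in knockout nerves (log2 difference -1.15, unadjusted p = 0.00260, adjusted p = 0.539, limma). Tmem119, a membrane protein that marks microglia, was at 3.01, 4.61 and 6.92 FPKM against 1.64, 2.01 and 2.43 FPKM (unadjusted p = 0.0174, adjusted p = 0.877, limma). P2ry12, a purine receptor, overlapped, with 4.31 to 7.37 FPKM in wild-type and 5.58 to 8.10 FPKM in knockout nerves. Per 1000 FPKM of these genes, Cx3cr1 stood at 23.1, 27.0 and 22.9 in wild-type and 52.1, 30.8 and 37.4 in knockout nerves, which did not overlap. The receptor was also selected on its FPKM, so this ratio is a description and no separate support. Against markers of monocytes, of natural killer and cytotoxic T-cells or of T-cells the receptor overlapped between genotypes. The T-cell list had 13 of 13 differences below 0, and 0 of its genes reached an unadjusted p under 0.05 by limma. Without wild-type 5, which held most T-cell transcripts, 5 of the 12 genes then tested were below 0.

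**Figure D4:**
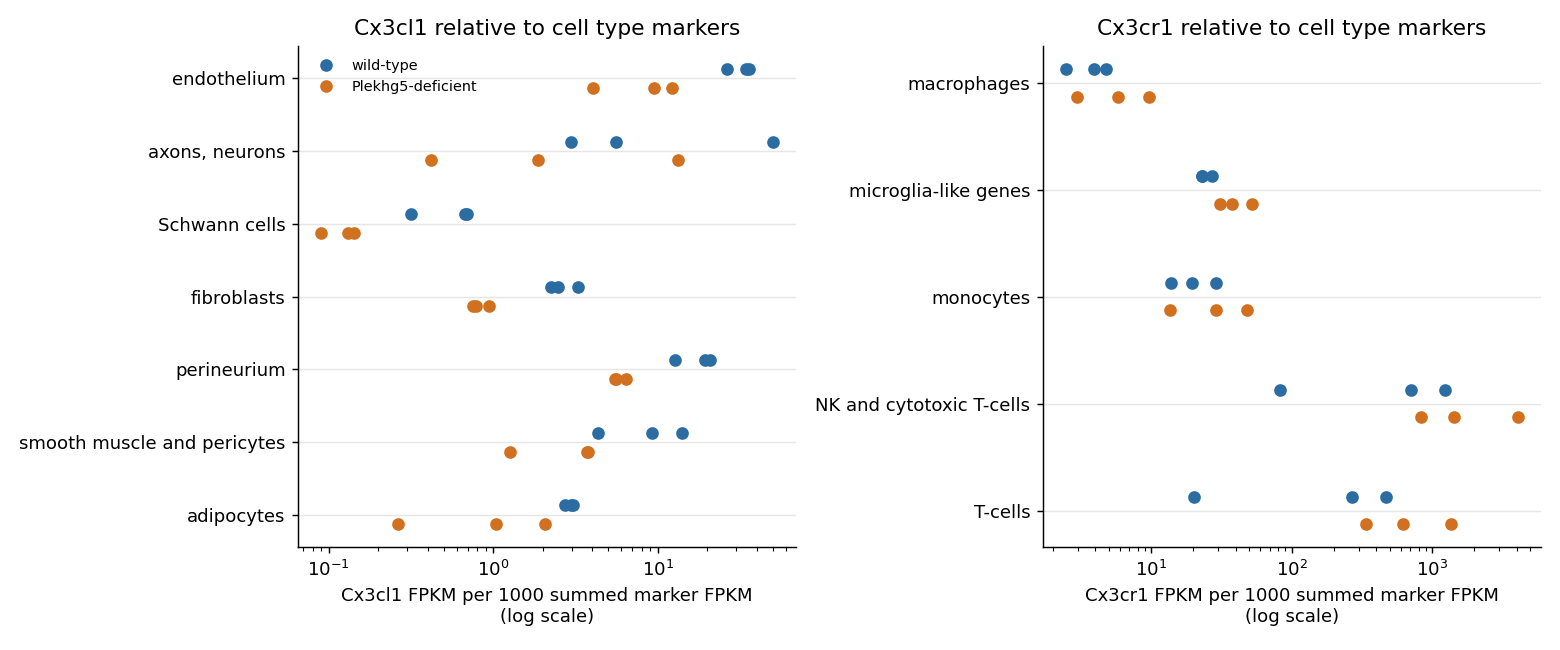
Scaled FPKM of Cx3cl1 (left) and Cx3cr1 (right) per 1000 summed FPKM of the markers of each cell type shown, on log axes, with 1 point per nerve and wild-type in blue above Plekhg5-deficient in orange. Of the lists shown, the ligand's genotypes separate for all but axons and neurons, and the receptor's overlap for all but the microglia-like genes. The members were selected on their FPKM, which carries over into these ratios, and not every cell type list was used.

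Over all 15 cell type lists, 158 of 161 genes were tested, and limma called 0 at an adjusted p under 0.05. Before adjustment 5 had a p under 0.05 in the lower and 4 in the higher direction, with a median difference of -0.19. Beside those already named, Ncmap, a protein of non-compact myelin, was higher in knockout nerves, with 152, 289 and 303 FPKM against 480, 456 and 358 FPKM (unadjusted p = 0.0348, adjusted p = 0.959, limma). Lypd2, of the perineurium, was at 106, 119 and 128 FPKM in wild-type and 49.3, 58.0 and 37.9 FPKM in knockout nerves (log2 difference -1.28, unadjusted p = 5.68e-04, adjusted p = 0.336, limma). It had the smallest adjusted p of these lists and did not pass. Lep, which encodes the adipocyte hormone leptin, was at 7.44, 33.3 and 15.0 FPKM against 5.87, 6.56 and 0.273 FPKM (unadjusted p = 0.0408, adjusted p = 0.969, limma).

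The neighbours of the pair were listed within 100 kb. Ccl22 and Ccl17, chemokines that attract T-cells through Ccr4, lie 20.3 and 28.0 kb from Cx3cl1. Ccl22 was at 0.339, 0.812 and 13.5 scaled FPKM in wild-type and 0.280, 0.288 and 0.0985 FPKM in knockout nerves, and Ccl17 was at 0.761, 1.13 and 4.09 FPKM against 0.330, 0.844 and 1.42 FPKM. Both were highest in wild-type 5, as was the ligand, whose 3 wild-type values of 7.44, 6.34 and 8.70 FPKM lay closer together. Of the 9 tested neighbours of Cx3cl1, 0 reached an unadjusted p under 0.05 by limma. Pllp, a membrane protein of myelin, was at 67.7 to 115 FPKM in wild-type and 99.3 to 133 FPKM in knockout nerves. Of the 13 tested neighbours of Cx3cr1, Mobp, a gene of oligodendrocyte myelin, was lower, with 14.0, 3.29 and 1.47 FPKM in wild-type and 0.379, 0.632 and 0.829 FPKM in knockout nerves (unadjusted p = 0.0276, adjusted p = 0.939, limma). Ccr8, the chemokine receptor next to Cx3cr1, was near 0 in all nerves but wild-type 5, where it had 0.868 FPKM. Among the genes that the long span of Cx3cr1 encloses or overlaps, Gorasp1 was at 4.50 to 5.62 FPKM in wild-type and 3.55 to 4.36 FPKM in knockout nerves. Wdr48 was higher on average in knockout nerves, with 9.48, 10.5 and 8.44 FPKM against 12.8, 11.9 and 9.58 FPKM, which overlapped. Csrnp1, Ttc21a and Xirp1 were also higher on average in knockout nerves and overlapped. For Xirp1 the mean was 2.33 FPKM in wild-type and 2.51 FPKM in knockout nerves, although its log2 difference was -0.35.

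The genes most like each member were ranked by Pearson r on log2(FPKM + 1) among 14984 genes. Over the 6 libraries those most like Cx3cl1 were Ltbr, the lymphotoxin beta receptor, with r = 0.996, the Arf GTPase activator Asap3 with 0.994, podoplanin, Pdpn, with 0.987, Plekhg5 itself with 0.982 and the ephrin Efna5 with 0.982. Pdpn, a glycoprotein of lymphatic endothelium and some fibroblasts, had 31.0, 32.8 and 37.4 scaled FPKM in wild-type and 16.3, 15.7 and 14.6 FPKM in knockout nerves. Most like Cx3cr1 were Lypd6 with 0.990, Layn, a hyaluronan receptor, with 0.985, D19Ertd737e with 0.983, the DNA polymerase subunit Pold3 with 0.981 and the splicing factor Hnrnph1 with 0.979. With the genotype means taken out, other genes came first: Gm17041, Bax, Lig3, Pdgfrl and Fancg for the ligand, with r from 0.984 to 0.986, and Pdgfc, Zfp292, Raph1, Etnppl and Dock9 for the receptor, with r from 0.994 to 0.999. With 6 points and 14984 genes such values are a description, and no gene was among the nearest 5 of a member in both rankings.

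Both members had the same direction of difference in all 18 alternatives tried, which is no sign of stability, since they were chosen for it. The log2 difference of Cx3cl1 ranged from -1.87 with a pseudocount of 0.1 to -1.27 with array weights, and that of Cx3cr1 from 0.31 without Plekhg5-deficient 2 to 0.64 with array weights. Leaving out 1 library at a time gave -1.64 to -1.42 for the ligand and 0.31 to 0.56 for the receptor. Without both libraries numbered 5, which held fewest neuronal transcripts, the differences were -1.36 and 0.56.

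**Figure D5:**
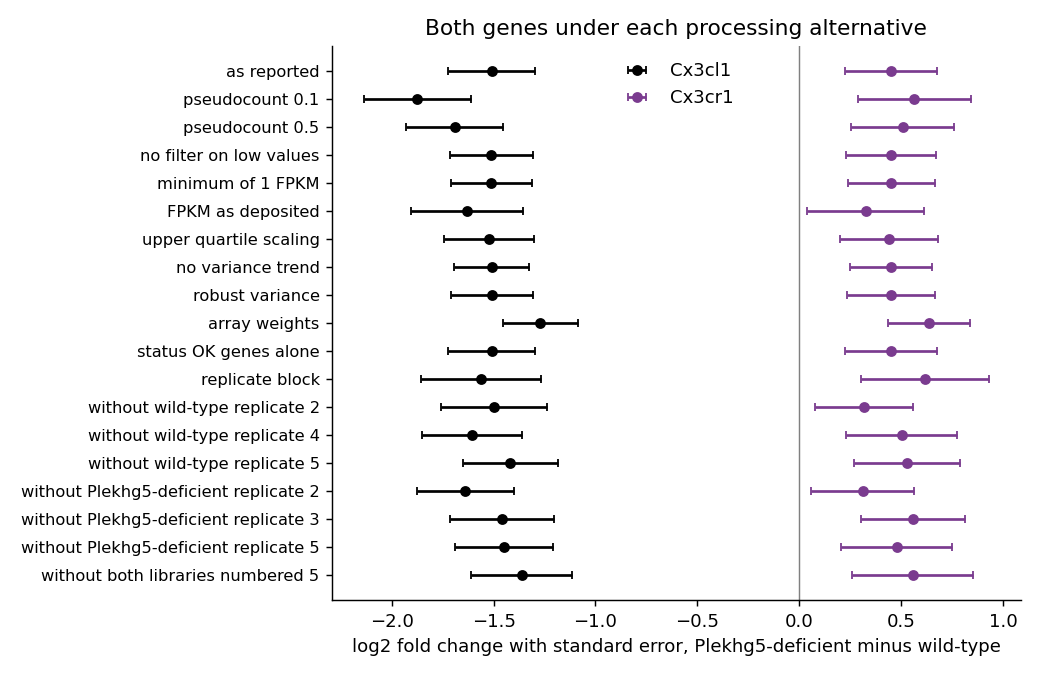
Difference of Plekhg5-deficient minus wild-type on the log2(FPKM + pseudocount) scale, with its standard error, for Cx3cl1 (black) and Cx3cr1 (purple) as reported and under 18 alternatives. All estimates of the ligand lie between -1.87 and -1.27 and all those of the receptor between 0.31 and 0.64.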

How the data were processed

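The deposited FPKM were made by the authors, who used Trim Galore 0.4.0 for trimming, STAR for mapping to GRCm38 and Cufflinks 2.2.1 for the levels and their 95% intervals, in a table for each library. Annotation release, strand setting and depth were not given in the sources used here. A gene was tested where its mean reached 0.1 FPKM in at least 1 genotype. After division by median-of-ratios factors, limma 3.58.1 (R 4.3.3) was run on log2(FPKM + 1) for genotype alone, with a trended variance, and p-values were adjusted by Benjamini-Hochberg over 21285 genes; the script was tested on simulated data. Members and gene lists were chosen with earlier results of these data known. The genes named were the members, Plekhg5, genes of each list with an unadjusted p under 0.05, examples from the 4 most abundant genes of a list and from genes within 100 kb, and the 5 genes most like each member; Cxcl16, Icam1, Adam17, Csf1r and others given as overlapping, and those whose genotypes did not overlap, were added after their values were seen, and some genes of the lists are not reported here by name. Transcript structures came from GENCODE M21, and promoter windows, 250 bases before to 50 after each start, from RefSeq (GRCm38.p6), where both members matched. Other pseudocounts, filters, scalings, variance settings, a replicate block and omitted libraries were tried. P-values measure the spread between 3 libraries a genotype, taken as separate animals. Figures were drawn with matplotlib 3.10.9.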

Additional observations from a re-analysis of the deposited data

How the results depend on the processing

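Cx3cl1 moved beyond its spread between replicates in 2 of 18 alternatives, to -1.87 with a pseudocount of 0.1 and to -1.27 with array weights, and Cx3cr1 in 0 of 18. Over all genes, those lower at an adjusted p numbered 1 with a pseudocount of 0.1, with a minimum of 1 FPKM and with robust variance, 0 without a filter, 8 with array weights and 0 without both libraries numbered 5, against 2 as reported. Those higher numbered 2 without a filter and 14 with array weights, against 6. Leaving out 1 library at a time gave 0 lower and 0 to 5 higher genes. At an unadjusted p the counts over all alternatives were 341 to 1170 lower and 239 to 1286 higher. List genes called at an adjusted p stayed at 0 in all 18. At an unadjusted p, pathway genes lower ranged from 4 to 12, and cell type genes lower from 4 to 19. Replicate numbers 2 and 5 occur in both genotypes and were not stated to pair animals, and same-numbered libraries had deviations with r = 0.07 and 0.58. Between differently numbered libraries of the 2 genotypes r ran from -0.52 to 0.46. With a replicate block the difference was -1.56 for Cx3cl1 and 0.62 for Cx3cr1, and limma called 0 genes lower and 0 higher at an adjusted p, with 615 and 336 at an unadjusted p under 0.05. The cause of these shifts was not tested. Depth is unknown, so the precision of low genes such as Ifng and Xcl1 cannot be given, and with 3 animals a genotype a p that missed the threshold does not show that levels were alike.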
